A study of Mus musculus with 2 samples.

Results

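The genes described here are 10 small nucleolar RNA (snoRNA) host genes of the mouse: Gas5, Snhg1, Snhg3, Snhg5, Snhg6, Snhg8, Snhg11, Snhg12, Snhg14 and Snhg18. They were taken by gene symbol from long-read RNA sequencing of the adrenal gland. The rule used no measured value, but earlier results of these data were known when the list was made. Of 18111 annotated genes with at least 1 read, all 10 were among those read in replicate 1 and 9 among those read in replicate 2, where Snhg11 had 0 reads. Together they held 316 reads on 62 transcript models in replicate 1 and 203 reads on 46 models in replicate 2.

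A snoRNA is a short nucleolar RNA that guides chemical modification of other RNAs, above all ribosomal RNA. Box C/D snoRNAs guide methylation of the ribose and box H/ACA snoRNAs guide conversion of uridine to pseudouridine. In mammals most are cut out of introns after the host RNA has been spliced, so the intron is the part that is used. The exons of many hosts named Snhg (small nucleolar RNA host gene) hold no long reading frame. Several hosts, Gas5 among them, are known for a pyrimidine run at the 5′ end that marks RNAs whose translation follows growth conditions, and for decay of the spliced RNA by the nonsense-mediated pathway.

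The tissue was adrenal gland of female B6CASTF1/J mice aged 14 days, the F1 hybrid of C57BL/6 and CAST parents, with no treatment and no second group. There were 2 libraries, biological replicates 1 and 2. The name of the tissue sample behind replicate 1 speaks of several females and that of replicate 2 of a single one, while both library descriptions speak of 3, so the labels do not settle whether animals were pooled. Each tissue sample had 1 library, and p-values below compare the reads of these libraries, not animals.

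Reads in annotated genes numbered 1065570 in replicate 1 and 946553 in replicate 2, and 1 read equalled 0.938 and 1.06 CPM, the unit that scales those reads to the same total in each library. The libraries stood apart in tissue markers. All 7 adrenal cortex markers were read in both, at a summed 54179 CPM in replicate 1 and 24213 CPM in replicate 2. The 8 hepatocyte markers summed to 705 CPM in replicate 1 and 77421 CPM in replicate 2, and all 8 were higher there. Higher and lower are calls of the exact test described below. It called 8.58% of all genes tested higher in replicate 2 and 17.9% lower. Muscle markers were higher in 4 of 4 tested, at 52.6 and 1522 CPM, and 5 of 6 chromaffin markers were lower, at 11579 and 4466 CPM. Values are therefore given by library throughout.

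The sequences of the snoRNAs that the results below return to are shown first, from the GENCODE M21 transcripts on the mm10 assembly, 5′ to 3′. For box C/D snoRNAs the capitals mark TGATG within the first 25 bases and CTGA within the last 20, the letters of the C and D boxes, read on the RNA strand only. Both stood in 23.7% of the 1507 annotated snoRNA entries, which were not split by class. For box H/ACA snoRNAs the capitals mark ACA placed 3 bases before the end, as in 17.6% of those entries. Snord47 (chr1:161038082-161038158, plus strand) and Snord78 (chr1:161036984-161037049) lie in introns of Gas5. Snord50a (chr9:88521529-88521600, minus strand) and Snord50b (chr9:88521797-88521868) lie in neighbouring introns of Snhg5. Snora73a (chr4:132352775-132352979, minus strand) and Snora73b (chr4:132352322-132352526) lie in the introns of Snhg3, and Snora24 (chr3:123507937-123508066, minus strand) in an intron of Snhg8.
Snord47: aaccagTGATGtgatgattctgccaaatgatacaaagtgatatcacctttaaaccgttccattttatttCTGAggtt
Snord78: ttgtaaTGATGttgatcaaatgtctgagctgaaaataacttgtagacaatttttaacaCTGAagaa
Snord50a: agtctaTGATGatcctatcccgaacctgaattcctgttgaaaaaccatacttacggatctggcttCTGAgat
Snord50b: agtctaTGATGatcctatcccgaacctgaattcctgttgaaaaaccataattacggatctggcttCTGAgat
Snora73a: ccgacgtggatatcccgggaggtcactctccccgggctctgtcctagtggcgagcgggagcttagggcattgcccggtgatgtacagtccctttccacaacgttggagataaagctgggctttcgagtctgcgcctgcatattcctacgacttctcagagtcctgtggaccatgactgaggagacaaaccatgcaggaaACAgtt
Snora73b: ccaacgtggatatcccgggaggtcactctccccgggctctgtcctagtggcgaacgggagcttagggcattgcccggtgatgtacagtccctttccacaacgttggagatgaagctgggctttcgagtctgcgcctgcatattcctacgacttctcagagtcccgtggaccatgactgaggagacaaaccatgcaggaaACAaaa
Snora24: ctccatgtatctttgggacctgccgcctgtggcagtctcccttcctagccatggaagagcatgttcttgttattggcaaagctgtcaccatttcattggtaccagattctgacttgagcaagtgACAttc

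The pairs that share a host are near copies. Counting from 1 at the 5′ end, Snord50a and Snord50b, both 72 bases, differ by C50A alone (98.6% identical). Snora73a and Snora73b, both 205 bases, differ at 7 positions (96.6% identical), G3A, G54A, A111G, T164C, G203A, T204A and T205A. Reads given to one of such a pair are uncertain for that reason.

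Gas5, a host of 9 separate snoRNA positions named for its high level in growth-arrested cells, was the most abundant of the 10 genes in both libraries. It lies at chr1:161034422-161038539. It had 109 reads (102 CPM) in replicate 1 and 91 reads (96.1 CPM) in replicate 2, a mean of 99.2 ± 4.35 CPM (SD, n = 2), which placed it 2066th among all genes. Gas5 gave 34.5% of the members' reads in replicate 1 (95% Clopper-Pearson interval 29.3% to 40.02%) and 44.8% in replicate 2 (37.9% to 51.9%). Each long read was counted once whatever its length, so these counts were not divided by gene length.

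Snhg5, host of the Snord50 pair at chr9:88521050-88522929, and Snhg3, host of the Snora73 pair at chr4:132348014-132353686, followed. Snhg5 had 63 reads (59.1 CPM) in replicate 1 and 27 (28.5 CPM) in replicate 2, a mean of 43.8 ± 21.6 CPM. Snhg3 had 51 reads (47.9 CPM) and 36 (38.0 CPM), a mean of 42.9 ± 6.95 CPM. Snhg5 was above Snhg3 in replicate 1 and below it in replicate 2, so the order of this pair was not stable.

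Snhg8, host of Snora24 at chr3:123507552-123508404, had 29 reads (27.2 CPM) in replicate 1 and 13 (13.7 CPM) in replicate 2. Snhg18, host of Snord123 at chr15:32240565-32244662, had 18 reads (16.9 CPM) and 14 (14.8 CPM). Snhg8 was the higher in replicate 1 and the lower in replicate 2, so this pair also changed places. Snhg1, which hosts 8 snoRNAs at chr19:8723475-8726443, had 17 reads (16.0 CPM) and 4 (4.23 CPM), and its ratio of 0.265 between the libraries was the lowest among the 9 members read in both.

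The other members were near the limit of detection. Snhg6, host of Snord87 at chr1:9941959-9944118, had 12 and 7 reads, and Snhg14, at chr7:59307924-59975759, had 11 and 8, means of 9.33 ± 2.73 and 9.39 ± 1.32 CPM that differed by less than their spread. Snhg12, at chr4:132308623-132311024, had 5 and 3 reads. Snhg11, at chr2:158375638-158386145 and annotated as protein coding in GENCODE M21, had 1 read in replicate 1. Its 0 reads in replicate 2 allow up to 3.17 CPM at a limit of 3 counts.

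**Figure D1:**
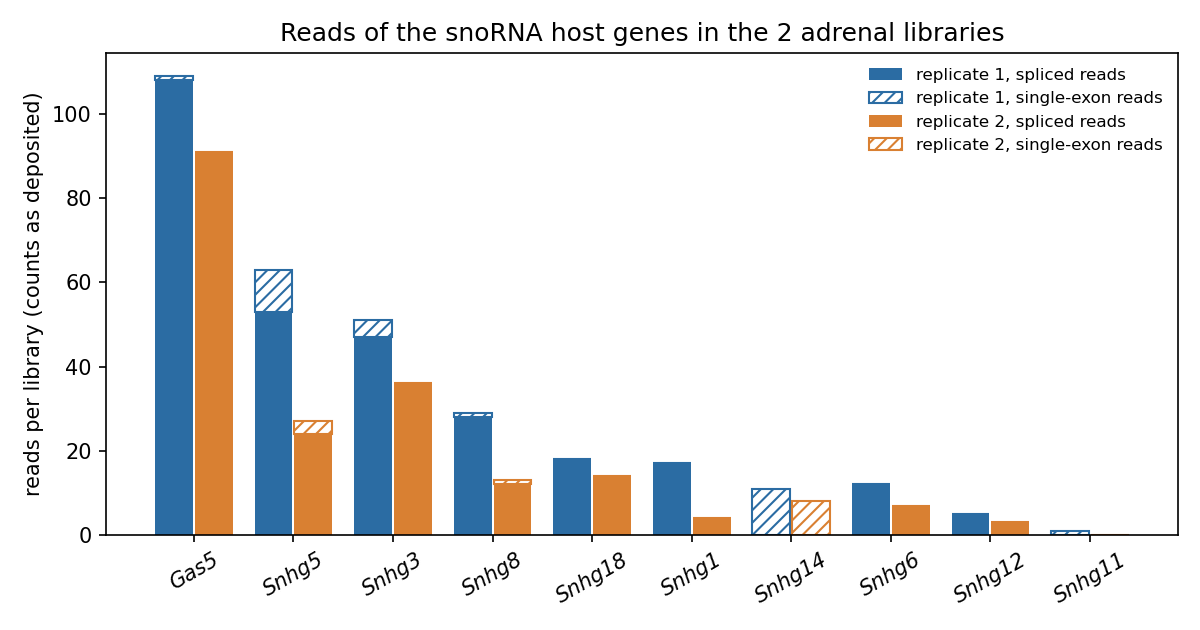
Reads per library (y axis, counts as deposited) of each host gene, ordered by mean CPM, with spliced reads as filled bars and single-exon reads hatched on top, replicate 1 in blue and replicate 2 in orange. Gas5 reaches 109 and 91 reads, Snhg14 has single-exon reads only, and Snhg11 has 1 read in replicate 1.

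The comparison of the libraries asks how closely the second repeats the first for these genes. The 6 members with at least 20 summed reads were tested on reads by the exact binomial test (two-sided and conditioned on the libraries' gene-read totals), adjusted by Benjamini-Hochberg over 9211 genes. Snhg5 was lower in replicate 2, and it was the only call among the 6, with 0 higher. Over all genes tested, 17.9% were lower and 8.58% higher, or 26.4% in either direction, so 1 of 6 is near the background. For Snhg5 the ratio of CPM in replicate 2 to replicate 1 was 0.482 (exact 95% counting interval 0.295 to 0.769), a log2 ratio of -1.04 ± 0.33 (SE of counting), adjusted p = 0.00777 by the exact test.

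The call on Snhg5 depended on the scaling. Its log2 ratio was -0.79 with TMM factors (exact test, adjusted p = 0.0700), -0.79 with DESeq2 size factors (adjusted p = 0.0691) and -0.45 scaled to spike-in reads (adjusted p = 0.394). When libraries were assumed to vary by a coefficient of 0.2, edgeR's exact test gave an adjusted p of 0.460. The median log2 ratio of all genes tested was -0.28 by gene reads, -0.03 with TMM and 0.31 with spike-in reads, and the median of the 6 members was -0.64, -0.39 and -0.05. A scaling moves every gene alike, so the gap between these medians is the same in each. Hepatocyte and muscle markers were higher in replicate 2 and cortex markers lower, as given above, and their part in these ratios was not tested. In bulk tissue, fewer cells of a type and less RNA per cell cannot be told apart.

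Snhg1 and Snhg8 leaned the same way as Snhg5 without passing the adjusted test. The log2 ratio of Snhg1 was -1.79 ± 0.76 (exact test, adjusted p = 0.0526) and that of Snhg8 was -0.96 ± 0.47 (adjusted p = 0.125); both had an unadjusted p under 0.05. Snhg3 was at -0.33 ± 0.31 (adjusted p = 0.523). Gas5 was at -0.09 ± 0.20 (adjusted p = 0.820) and Snhg18 at -0.18 ± 0.51 (adjusted p = 0.857), and the sign of both turned with TMM, DESeq2 and spike-in scaling, as that of Snhg3 did with spike-in reads.

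**Figure D2:**
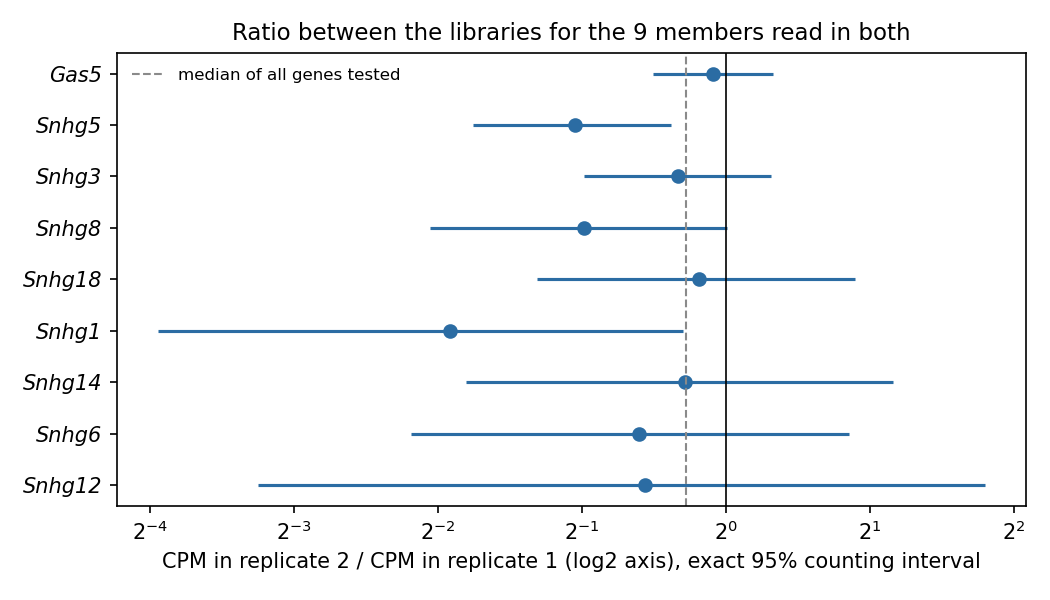
Ratio of CPM in replicate 2 to replicate 1 (x axis, log2 scale) for the 9 members read in both libraries, with the exact 95% counting interval, a solid line at equal CPM and a dashed line at the median of all genes tested. The intervals of Snhg5 and Snhg1 lie below equal CPM, and the interval of Gas5 spans it.

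Nearly all host reads were spliced. Single-exon reads were 28 of 316 in replicate 1 (8.86%, Clopper-Pearson interval 5.97% to 12.6%) and 12 of 203 in replicate 2 (5.91%, 3.09% to 10.1%). Of these, 11 and 8 belonged to Snhg14, which had no spliced read. Without Snhg14, a choice made after its values were seen, the share was 17 of 305 (5.57%, 3.28% to 8.77%) and 4 of 195 (2.05%, 0.562% to 5.17%). Snhg1, Snhg6, Snhg12 and Snhg18 had 0 single-exon reads in either library. With 18 and 14 reads in Snhg18, the deepest of these, the upper bounds of the interval were 18.5% and 23.2%.

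The single-exon share was set beside those of other genes with a spliced annotation and at least 20 summed reads. The 6 such members had a median share of 2.55%, the 161 protein-coding genes that hold an annotated snoRNA 2.37%, and all 8890 genes 3.85%. The 111 other annotated long noncoding RNA genes had a median of 27.3%. Pooled over reads the members had 4.24%, the protein-coding hosts 3.10%, all genes 7.39% and the other long noncoding RNA genes 32.8%. The minimum of 20 reads leaves out Snhg14, whose reads were all single-exon, and with it the members stood at the 8.86% and 5.91% given above, a mean of 7.39%. These are descriptions of 2 libraries. Of the 4 members that could be tested for a difference of this share between the libraries, 0 were called by Fisher's exact test (lowest unadjusted p 0.139, for Snhg3, adjusted p = 1), against 0.16% of 7500 genes.

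The single-exon reads differed in kind from gene to gene. The 10 and 3 of Snhg5 lay wholly inside its last exon, on models of 94 nt in replicate 1 and 318 nt in replicate 2 that ended 5 nt before the annotated 3′ end. The 4 of Snhg3, seen in replicate 1 only, were a 310-nt model of its last exon, classed as part of an annotated chain. The 1 of Gas5 began upstream of the annotated gene and held none of its snoRNAs. In Snhg8 the 1 read in each library matched Snhg8-202, an annotated unspliced form of 776 nt that contains Snora24.

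Snhg14 is the long host of the Snord115 and Snord116 clusters and is known as an antisense RNA of the imprinted Ube3a gene in neurons. All 11 reads of replicate 1 and all 8 of replicate 2 were on 1 model, the same in both, at chr7:59306727-59307924 (1198 nt). That model shared 1 base with the annotated Snhg14 gene. All of its 1198 bases lay in exons of Ube3a, a ubiquitin ligase gene on the opposite strand, and its end nearest the clusters was 34302 nt from the first snoRNA. The 208 snoRNA entries inside Snhg14 had 0 reads in both libraries. Ube3a itself had 9 reads in replicate 1 and 5 in replicate 2 on models that reach into the Snhg14 span. The 5 neuron markers were all read in both libraries, at a summed 101 and 52.8 CPM. Of 3 tested, 1 was lower in replicate 2, where 17.9% of all genes tested were lower. Which cells these marker reads came from was not tested. The sources used here do not give how reads were oriented, so whether these reads came from the strand of Snhg14 was not tested.

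The introns that hold snoRNAs were removed from most reads that passed them. A passage is 1 read at 1 snoRNA position, or at 1 annotated intron without a snoRNA. The read was either spliced across that place or held the whole annotated intron inside an exon. A read that removed several snoRNAs in 1 intron therefore counts once for each of them. Over 28 snoRNA positions with reads, the intron was kept in 47 of 1355 passages in replicate 1 (3.47%, 2.56% to 4.59%) and 35 of 1009 in replicate 2 (3.47%, 2.43% to 4.79%). Without models of 1 read, the mean over the libraries was 1.43% in place of 3.47%. The 9 introns without a snoRNA in the same genes were kept in 77 of 440 (17.5%, 14.1% to 21.4%) and 41 of 284 (14.4%, 10.6% to 19.1%). The first intron of Snhg5, described below, supplied 36 and 16 of the latter. Without it, a choice made after its value was seen, the others were kept in 41 of 387 (10.6%, 7.71% to 14.1%) and 25 of 260 (9.62%, 6.32% to 13.9%), of which Gas5 alone supplied 33 and 21. In Gas5 the introns without a snoRNA were kept in 15.6% and 11.6% of passages and the snoRNA introns in 3.97% and 3.58%. By the same counts Snhg5 kept 42 of 159 and 19 of 72 without a snoRNA against 6 of 106 and 4 of 48 with one. Its first intron supplied 36 and 16 of those without, and its other introns without a snoRNA were kept about as rarely as its snoRNA introns. Snhg8 kept 3.45% and 7.69% without a snoRNA against 6.90% and 7.69% with one. Snhg1 kept 0 of 17 and 0 of 4 against 1 of 119 and 1 of 32, and Snhg6 kept 1 of 23 and 0 of 14 against 0 of 12 and 0 of 7. Passages of the same read are not independent, and no test was made of this difference.

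Keeping of snoRNA introns was uneven along Gas5. The intron of Snord78 was kept in 17 of 106 passages in replicate 1 (16.0%) and 11 of 91 in replicate 2 (12.1%), the highest of the 9 snoRNA positions of Gas5 in both libraries. Next came that of Gm22357, with 10 of 106 and 8 of 90, and that of Gm23212, with 6 of 106 and 4 of 90. The introns of Gm22489 and Gm25789 were kept in 0 of 105 and 0 of 107 passages in replicate 1 and in 0 of 90 each in replicate 2. Those of Snord47, Snord80, Gm26224 and Mir5117 were kept in 0 to 3 passages in each library.

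The kept introns of Gas5 came together. All 17 reads of replicate 1 that kept the Snord78 intron also kept the next intron, which has no snoRNA, within 1 exon, as did 10 of 11 in replicate 2. The intron of 304 nt without a snoRNA further upstream was kept in 16 and 11 reads. In all, 23 of 109 Gas5 reads (21.1%, 13.9% to 29.96%) kept at least 1 snoRNA intron in replicate 1, and 14 of 91 (15.4%, 8.67% to 24.5%) in replicate 2. Reads that removed all 9 snoRNA positions were 82 (75.2%) and 73 (80.2%).

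In the other hosts few snoRNA introns were kept. The Snora73a and Snora73b introns of Snhg3 were removed in all 94 passages of replicate 1 and all 72 of replicate 2, with upper bounds of the interval at 3.85% and 4.99% kept. In Snhg5 the Snord50a intron was kept in 6 of 53 and 2 of 24 passages and the Snord50b intron in 0 of 53 and 2 of 24. The Snora24 intron of Snhg8 was kept in 2 of 29 and 1 of 13. Snhg1 kept 1 of 119 and 1 of 32, and Snhg6, Snhg12 and Snhg18 kept 0 in either library.

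**Figure D3:**
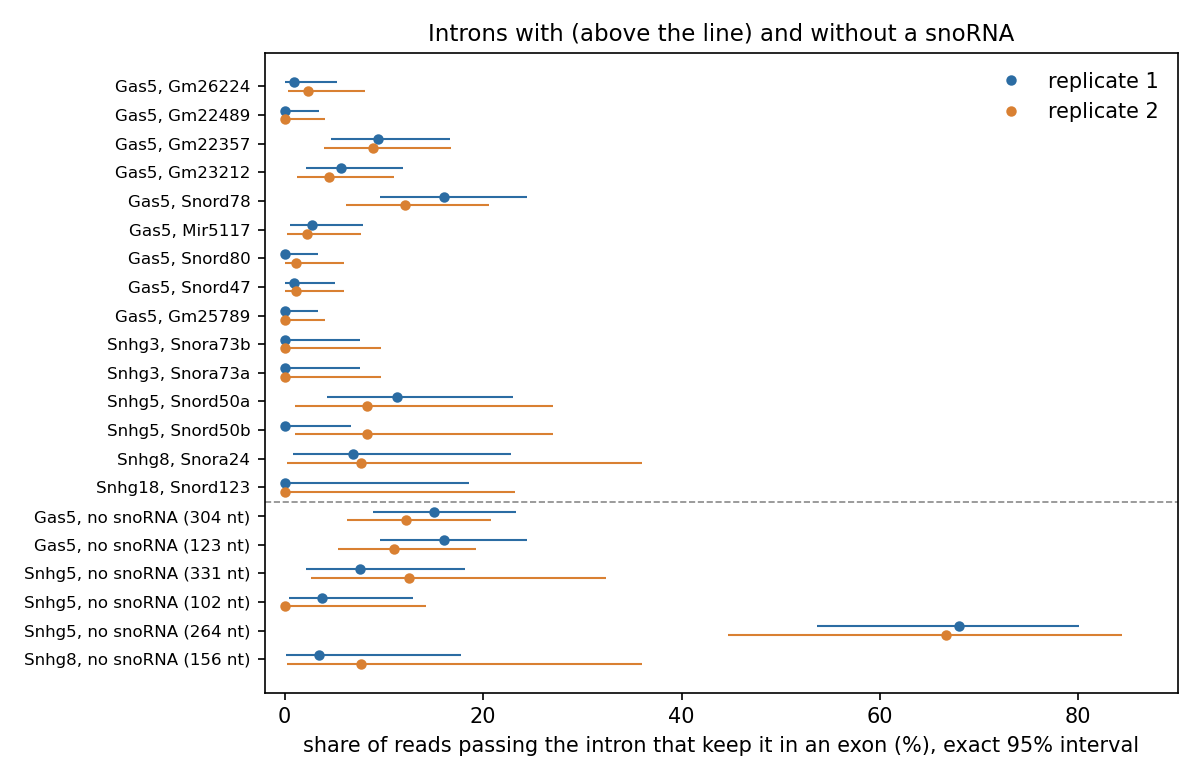
Share of passages in which an intron was kept (x axis, percent, with exact 95% intervals) for introns with at least 10 passages in each library, with snoRNA-bearing introns above the dashed line and introns without a snoRNA below it. The Snord78 intron of Gas5 stands at 16.0% and 12.1%, and the first intron of Snhg5 (264 nt) at 67.9% and 66.7%.

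Gas5 was spliced in many ways. Its spliced reads fell on 44 intron chains, of which 12 were seen in both libraries and held 78.7% of spliced reads in replicate 1 and 84.6% in replicate 2. The leading chain, that of the 12-exon transcript Gas5-224, had 35 of 108 reads (32.4%, 23.7% to 42.1%) and 25 of 91 (27.5%, 18.6% to 37.8%). Gas5-210, whose chain differs only by leaving out the exon between the Snord78 intron and the next, had 25 and 23. Models classed NIC, whose splice sites are annotated but whose combination is not, took 33 of 109 and 23 of 91 Gas5 reads. Over all members they took 14.9% and 15.3%, where Gas5 supplies most of them. Over all annotated genes they took 4.54% and 3.97% of reads.

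The exon that sets Gas5-224 and Gas5-210 apart is exon 7 of Gas5-224, 41 nt at chr1:161037124-161037164. It was left out of 44 of 106 reads in replicate 1 (41.5%, 32.0% to 51.5%) and 44 of 91 in replicate 2 (48.4%, 37.7% to 59.1%). No other inner exon of Gas5-224 was left out as often in either library: exons 8, 9 and 10 were skipped in 9.26% to 10.3% of reads in replicate 1 and 19.8% in replicate 2, and exons 2 and 11 in 0. The exon is printed in lower case because no motif was marked in it.
Gas5 exon 7: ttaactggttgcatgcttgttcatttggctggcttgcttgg

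Leaving out exons puts several snoRNAs into 1 intron. In Gas5, 14 of 108 spliced reads in replicate 1 (13.0%, 7.27% to 20.8%) and 18 of 91 in replicate 2 (19.8%, 12.2% to 29.4%) removed at least 2 snoRNA positions in 1 intron. The largest such intron held 5, from Gm23212 to Snord47, in 5 reads of replicate 1 and 8 of replicate 2. Of these, 3 and 7 were on the same unannotated chain. Gas5-209, an annotated chain in which 1 intron runs from exon 6 to exon 11 of Gas5-224, had 4 and 10 reads.

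Snhg5 showed the same arrangement in most of its reads. Snord50a and Snord50b were removed within 1 intron in 39 of 53 spliced reads in replicate 1 (73.6%, 59.7% to 84.7%) and 18 of 24 in replicate 2 (75.0%, 53.3% to 90.2%). The exon left out is exon 5 of Snhg5-202, 67 nt at chr9:88521650-88521716, which was an exon of its own in 8 and 4 reads. It is shown because it lies between the Snord50a intron and the Snord50b intron.
Snhg5 exon 5: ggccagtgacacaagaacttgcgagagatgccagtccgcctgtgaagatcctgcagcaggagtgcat

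The 16 chains of Snhg5 were led by unannotated ones. The leading chain has 3 introns and was classed ISM, a part of an annotated chain, with 22 of 53 spliced reads (41.5%, 28.1% to 55.9%) in replicate 1 and 10 of 24 (41.7%, 22.1% to 63.4%) in replicate 2. The next was an NIC chain with 13 and 6 reads, which differs from it by removing the first intron as well. Annotated chains took 11 of 63 Snhg5 reads (17.5%, 9.05% to 29.1%) and 3 of 27 (11.1%, 2.35% to 29.2%), the lowest share among the members with spliced reads in both libraries. Over all members, Known models, those that match an annotated transcript, took 64.9% and 68.5%, against 76.1% and 78.2% over all annotated genes.

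The first intron of Snhg5, 264 nt long and without a snoRNA, was kept in 36 of 53 passages in replicate 1 (67.9%) and 16 of 24 in replicate 2 (66.7%). The annotated transcript Snhg5-201 likewise starts with an exon that spans it, and Snhg5-202 removes it. The other introns of Snhg5 without a snoRNA were kept in 4 of 53 and 3 of 24 passages and in 2 of 53 and 0 of 24.

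**Figure D4:**
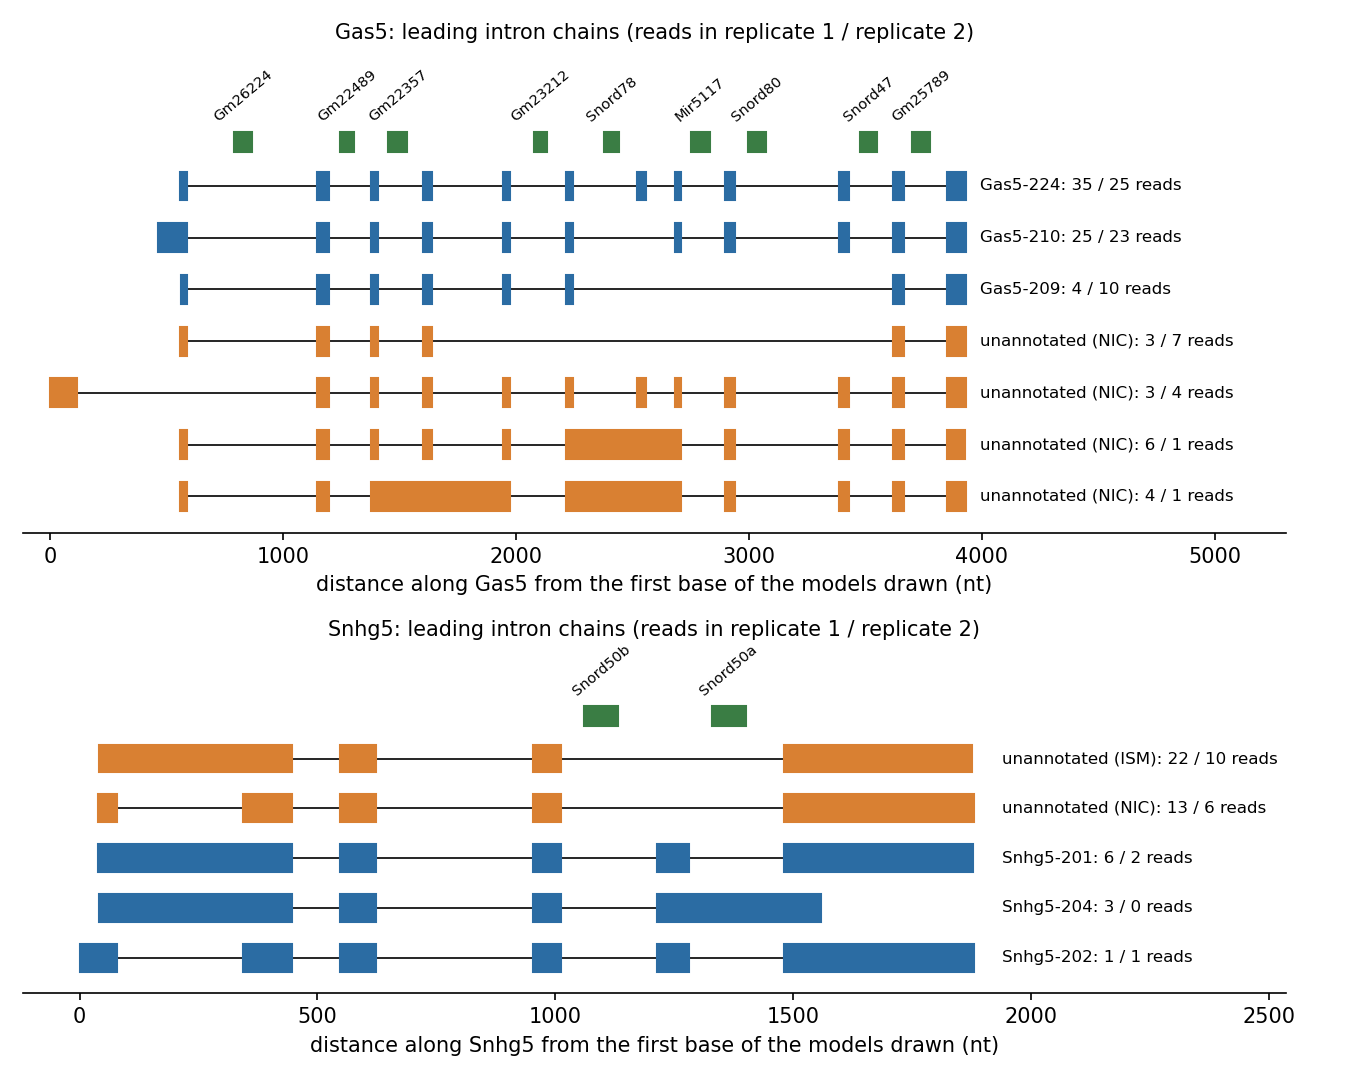
Leading intron chains of Gas5 (top, 7 chains) and Snhg5 (bottom, 5 chains) along the gene, 5′ to 3′ (x axis, nt from the first base of the models drawn), with exons as boxes, annotated chains in blue, unannotated ones in orange, snoRNAs in green and reads in replicate 1 / replicate 2 at the right. Gas5-224 and Gas5-210 differ by 1 exon, and the leading chains of Snhg5, with 22 and 10 and with 13 and 6 reads, remove both Snord50 copies in 1 intron.

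The remaining hosts had few forms. Snhg3-204 took 46 of 47 and 36 of 36 spliced reads, Snhg8-201 took 27 of 28 and 12 of 12, and Snhg18-201 took all 18 and 14. Snhg1-211, with 9 introns, took 10 of 17 and 2 of 4, and Snhg1-207, whose chain lacks the first of them, took 5 and 0. Snhg12-206 took 5 of 5 and 2 of 3. The share of the leading chain was tested between the libraries in Gas5, Snhg3, Snhg5 and Snhg8, and Fisher's exact test called 0 of them (lowest unadjusted p 0.535, for Gas5, adjusted p = 1), against 0.47% of 7238 genes. The depth allows wide differences, as the intervals show.

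Snhg6 was read in a pair of forms that differ by 6 bases at the start of the last exon. Snhg6-203, which includes them, had 8 and 6 reads, and Snhg6-204, which leaves them out, had 3 and 1. The junction of Snhg6-203 is shown from 15 bases before to 9 bases after them, the optional bases (chr1:9942150-9942155, minus strand) in capitals.
Snhg6-203 junction: cctttattgttttggGTGCAGcttacatat

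Reads were also given to snoRNA genes themselves. Of 32 snoRNA entries inside the members other than Snhg14, 6 had reads, 9 in replicate 1 and 6 in replicate 2. Snora73a had 3 and 4, Snord87 had 2 and 1, and Snora24 had 2 and 0. Mir5117 and Snord50a had 1 read each in replicate 1, and Snord123 had 1 in replicate 2. Over all 1507 annotated snoRNA entries, 51 had reads, 273 and 180 in all.

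Start windows from RefSeq (mm10 assembly) matched 9 of the 10 members, Gas5 with 2 starts. A run of at least 5 C or T bases from the RefSeq start, read on the RNA strand, was found at 1 start of Gas5 and at Snhg8, Snhg12 and Snhg18, and in 4.44% of all 32851 windows. The windows below run from 10 bases before the start to 29 after it, with that run in capitals. That share holds for RefSeq starts only. At the start with the largest number of unannotated spliced reads in the window, Gas5 and Snhg8 had a run of 0. For Gas5 that start lay 3 bases upstream of the RefSeq start and held 24 of 51 such reads, not a majority. Nearly as many of these 51 reads began at the RefSeq start itself, with its run of 5, on models of 1 to 3 reads. In replicate 2 more of them began there than 3 bases upstream, so the order of these starts was not stable. For Snhg8 the leading start lay 6 bases downstream, with 1 read. Of all 42 Snhg8 reads, 3 began within 50 bases of its RefSeq start. For Snhg5, with a run of 0 at the RefSeq start, the capitals mark a run read elsewhere: it begins 7 bases downstream, where annotated Snhg5-201 and models with 37 of the 63 reads on unannotated spliced models, both libraries summed, begin. Model ends can be set to annotated ones by the authors' program, so these are not independent reads of the start. The windows are chr1:161035156-161035195 (Gas5), chr9:88522868-88522907 (Snhg5, minus strand), chr3:123508307-123508346 (Snhg8, minus strand), chr4:132308668-132308707 (Snhg12) and chr15:32244633-32244672 (Snhg18, minus strand).
Gas5 start: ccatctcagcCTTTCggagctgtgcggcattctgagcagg
Snhg5 start: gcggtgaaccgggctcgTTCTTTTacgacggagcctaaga
Snhg8 start: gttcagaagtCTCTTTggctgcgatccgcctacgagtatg
Snhg12 start: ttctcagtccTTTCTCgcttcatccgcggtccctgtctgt
Snhg18 start: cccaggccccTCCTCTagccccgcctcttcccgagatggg

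Genes of the proteins that bind snoRNAs were read beside their hosts. Of the 4 box C/D core genes, 2 were lower in replicate 2 and 0 higher by the same exact test, which called 17.9% of all genes lower and 8.58% higher. Snu13, whose protein binds the turn formed by the C and D boxes, had 171 and 100 reads (log2 ratio -0.60 ± 0.18, adjusted p = 0.00480). Nop56, a scaffold of the particle, had 109 and 51 (-0.92 ± 0.24, adjusted p = 0.000946). Fbl, the methyltransferase, had 107 and 76 reads and Nop58 had 32 and 21, and neither passed. The median of the 4 was -0.51, against -0.28 for all genes, and it was 0.07 when scaled to spike-in reads, against 0.31 for all genes, with 0 of 4 called. With TMM or DESeq2 factors Nop56 alone was called.

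Of the 4 box H/ACA core genes, 2 were lower and 0 higher, against the same 17.9% and 8.58% of all genes. Nop10 had 431 and 250 reads (log2 ratio -0.61 ± 0.11, exact test, adjusted p = 7.2e-07) and Nhp2 had 153 and 62 (-1.13 ± 0.22, adjusted p = 8.9e-07). Dkc1, the pseudouridine synthase, had 53 and 46 reads and Gar1 had 42 and 29. With spike-in scaling Nhp2 alone was called and the median of the 4 turned from -0.48 to 0.10, as that of all genes turned from -0.28 to 0.31. With the assumed spread of 0.2 between libraries, 0 of the 8 core genes were called.

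The genes for assembly of the particles and for processing of introns include the debranching enzyme Dbr1 and the intron-binding helicase Aqr. Of 9 tested, 0 were called, against 26.4% of all genes in either direction, and 0 had an unadjusted p under 0.05. Their median log2 ratio was -0.37, against -0.28 for all genes. Of the nonsense-mediated decay genes, 0 of 6 tested were called, against the same 26.4%, and 2 had an unadjusted p under 0.05 (median -0.34). These were Smg6 (log2 ratio -1.17 ± 0.58, exact test, adjusted p = 0.119) and Smg9 (-0.96 ± 0.47, adjusted p = 0.125), both lower in replicate 2. Upf1, the helicase of that pathway, leaned the other way, with 75 and 87 reads (log2 ratio 0.38 ± 0.23, exact test, adjusted p = 0.227). The same test called Upf1 higher with TMM (adjusted p = 0.0318), DESeq2 (0.0383) and spike-in scaling (0.000172). With the assumed spread of 0.2, edgeR's exact test did not call it (adjusted p = 0.864). Upf1 and the other genes of these lists that did not pass were named after their values were seen.

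Of 258 protein-coding genes that hold an annotated snoRNA, 161 were tested, 48 were lower and 2 higher, with a median log2 ratio of -0.35, where 17.9% of all genes tested were lower and 8.58% higher, with a median of -0.28. Among those with most reads were Atp5b, a subunit of mitochondrial ATP synthase, at 5163 and 5471 reads (log2 ratio 0.25), the ribosomal protein gene Rpl5 at 1193 and 736 (-0.53), and the chaperone gene Hspa8 at 1806 and 1334 (-0.27). These 3 passed the exact test, Hspa8 neither with TMM nor DESeq2 factors, and none of the 3 with the assumed spread of 0.2. With TMM 24 were lower and 6 higher, and with spike-in scaling 3 were lower and 25 higher. Over all genes tested, the counts moved likewise, from 1646 lower and 790 higher to 643 and 1093 with TMM and 170 and 2071 with spike-in reads, and the median of the hosts was 0.24 against 0.31 for all genes with the last. Spike-in scaling turned the sign of Rpl5 and Hspa8, and called Hspa8 higher.

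The 5 other annotated Snhg genes had 165 reads in replicate 1 and 83 in replicate 2. Snhg9 had 78 and 41 (log2 ratio -0.75 ± 0.28, exact test, adjusted p = 0.0256), a call that was lost with TMM, DESeq2 and spike-in scaling and with the assumed spread of 0.2. Snhg20 had 56 and 29 reads (-0.77 ± 0.33, adjusted p = 0.0606), Snhg15 had 12 and 9, and Snhg17 had 11 and 2.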

How the data were processed

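For each library the authors deposited a read count per transcript model, in whole reads that are not scaled, and a model annotation on mm10. Per the file headers and the description deposited with them, the models carry TALON identifiers and classes (Known, ISM, NIC, NNC, Genomic) on GENCODE M21. Exon numbers and lengths were taken from the deposited tables, and coordinates from the deposited annotation. The aligner, TALON version and read filters had no statement in the labels or headers read. Known models carry annotated ends, so the ends and lengths of single reads are unknown.

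All models of a gene were summed. CPM is over reads in annotated genes without spike-ins (26894 and 15903 spike-in reads left out). Genes with at least 20 summed reads were tested by an exact conditional binomial test; log2 ratios have 0.5 reads added. Single-exon shares and leading chains (at least 10 spliced reads in each library) were tested by Fisher's exact test. All p-values were adjusted by Benjamini-Hochberg at 0.05 over all genes tested. A model fitted between groups was not possible, since there is 1 group. Intervals are exact Clopper-Pearson at 95%. Reads carry no molecular identifiers, so intervals, limits and tests cover counting error only. The binomial test and the test of the single-exon share were run on simulated reads that vary by counting error only. Such reads cannot show how the tests hold where libraries differ in other ways. The test of the leading chain was not simulated. Other scalings (TMM, DESeq2 size factors, spike-in reads), read minimums, model classes and an assumed spread between libraries were tried as alternatives. Intron passages used the shortest annotated intron around each snoRNA.

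Python 3.11.15, SciPy 1.17.1, R 4.3.3, edgeR 4.0.16 and DESeq2 1.42.0 were used, the last for size factors only. The named genes are all members, their snoRNAs, the genes of the fixed lists that passed the test, and the 4 most abundant protein-coding and other Snhg hosts. Of the protein-coding hosts, 1 is not reported here. The members and lists were chosen with earlier results of these data known. Of the marker lists not named above, erythroid markers were lower in 4 of 4 tested and endothelial markers in 1 of 4, and adipocyte markers were higher in 2 of 4. The same exact test called 17.9% of all genes lower and 8.58% higher, so 1 of 4 is near the background. Adipocyte markers were higher in 4 of 4 with TMM, DESeq2 and spike-in scaling, and in 0 with the assumed spread of 0.2. With spike-in scaling 0 endothelial markers were lower and 1 was higher.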

Additional observations from a re-analysis of the deposited data

Results flagged for a closer look

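These reads lie outside the comparisons of the report and exceed the limit of 3 counts that a count of 0 allows. An unannotated locus inside the span of Snhg11, placed by its models on the opposite strand, had single-exon models only. It had 19 reads in replicate 1 and 8 in replicate 2, against 1 and 0 reads given to Snhg11. The sources used here do not give how reads were oriented, so the strand of these reads was not tested. Snora73a, the snoRNA of Snhg3, had 4 reads on its own entry in replicate 2, and 3 in replicate 1. No outlier check was possible with 2 libraries.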

How the results depend on the processing

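Of the alternatives, 2 were added after seeing the data: leaving out Snhg14, which moved the mean single-exon share over the members from 7.39% to 3.81%, and leaving out the first intron of Snhg5, which moved the mean kept share of introns without a snoRNA from 16.0% to 10.1%. The count of members lower in replicate 2 fell from 1 to 0 with TMM, DESeq2 size factors, spike-in scaling and the assumed spread of 0.2. The last also cut the genes called from 2436 to 513. By gene reads 790 genes were higher and 1646 lower, with TMM 1093 and 643, with DESeq2 factors 1075 and 656, and with spike-in reads 2071 and 170.

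Signs turned for the genes named next, of which Hspa8 alone was called after the turn. The log2 ratio of Gas5 went to 0.16 (TMM), 0.16 (DESeq2) and 0.50 (spike-in), Snhg18 to 0.069, 0.064 and 0.41, Snhg15 to 0.024, 0.019 and 0.36. With spike-in reads Snhg3 went to 0.26, Rpl5 to 0.062 and Hspa8 to 0.32 (adjusted p = 1.2e-08).

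Without Genomic models the single-exon share was 1.11%. For a difference of this share 187 of 3298 genes tested were called, in place of 12 of 7500. Over annotated lncRNA genes alone 1 of 82 was. Without models of 1 read, snoRNA introns were kept in 1.43% in place of 3.47% and the others in 11.1%. For the leading chain 34 of 7238 genes were called and 23 to 38 under the alternatives, which tested 3748 to 7238 genes. Leaving out 1 library gave a summed 214 to 297 CPM for the members (256 ± 58.0), single-exon shares of 5.91% to 8.86%, and kept shares of 3.47% to 3.47% for snoRNA introns and 14.4% to 17.5% for the others. No member was called for either share under the alternatives run. No paired analysis was possible because there is 1 group. Depth limits the members under 20 reads most.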
